A study of Mus musculus with 6 samples.

Results

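The CCN family consists of secreted matricellular proteins, which sit in the extracellular matrix and modulate cell adhesion and growth factor signalling rather than building the matrix itself. Its 6 genes, Ccn1 to Ccn6, were read from the deposited expression table as every row whose platform gene symbol was one of these names or an older one, such as Cyr61 or Ctgf. Each member had 1 row, so the family made up 6 of the 22206 gene rows tested. A CCN protein is built from modules resembling the insulin-like growth factor binding proteins, von Willebrand factor type C and thrombospondin type 1 repeats, followed in all members but CCN5 by a C-terminal cystine knot. CCN proteins act mainly through integrins and heparan sulfate proteoglycans, and CCN1 and CCN2 are classical transcriptional targets of the coactivators YAP and TAZ, which act with TEAD factors and are held back by the kinases LATS1 and LATS2.

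Müllerian ducts, the embryonic tubes that form the oviducts, uterus and upper vagina, were taken at E17.5 from single mouse embryos, and each was run on 1 Affymetrix array. The 3 mutant embryos had the genotype Lats1f/f,Lats2f/f,Amhr2cre/+, and the 3 control embryos Lats1f/f,Lats2f/f, so both groups carried the floxed alleles and only the mutants carried Cre, placed in the Amhr2 locus. Amhr2 encodes the receptor of anti-Müllerian hormone and is active in the mesenchyme around the duct, so a whole duct also holds cells in which this Cre is not active. Arrays are called mutant 1 to 3 and control 1 to 3 by the replicate number in the labels.

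Gene rows had medians of 6.87 to 6.95 on the log2 scale, depending on the array. Background was read from 23 antigenomic probes, whose median on an array was 5.35 to 5.88. With 3 arrays a group, the precision of every comparison is limited. Of the gene rows, 3.26% passed an adjusted p of 0.05 in limma's moderated test, 2.59% as rises and 0.666% as falls in mutant ducts. The groups did not overlap in 21.1% of gene rows. Amhr2 was at 6.92, 7.52 and 6.54 in mutants 1 to 3, against 10.88, 10.51 and 10.80 in controls 1 to 3. Its log2 difference was -3.73 ± 0.25 (SE; limma adjusted p = 0.000112). Only the mutants carried Cre in this locus, so an effect of the Cre allele on this signal cannot be told apart from other changes. That limits Amhr2 as a marker of mesenchyme here. Lats1 was at 11.12, 11.77 and 11.60 in mutants, against 12.51, 12.13 and 12.20 in controls (limma adjusted p = 0.0958). Lats2 was at 11.63, 11.95 and 11.32 in mutants, against 11.49, 11.58 and 11.17 in controls, with overlapping groups. Whether the probes lie in the floxed exons is not known here, so neither gene can serve as a check of recombination. All 8 listed markers of Müllerian mesenchyme were above the background median on every array, as were 9 of 10 epithelial markers. Control 3 stood apart in markers of other tissue, with a summed urothelial marker signal of 14.61 on the log2 scale against at most 11.23 on the other arrays.

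Some of the CCN genes were much higher in mutant ducts. Of the 6 CCN genes, 3 rose, none fell and 3 did not pass the threshold, beside 2.59% of all gene rows that rose. Ccn1 rose 18.2-fold, Ccn2 13.5-fold and Ccn4 3.74-fold. Ccn3 was lower on average but its groups overlapped, Ccn5 was nearly level, and Ccn6 was below the background median on all arrays. The median log2 difference was 1.01 over the 6 members and -0.01 over all gene rows. In a whole duct, more cells that express a gene and more RNA per cell cannot be told apart.

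**Figure D1:**
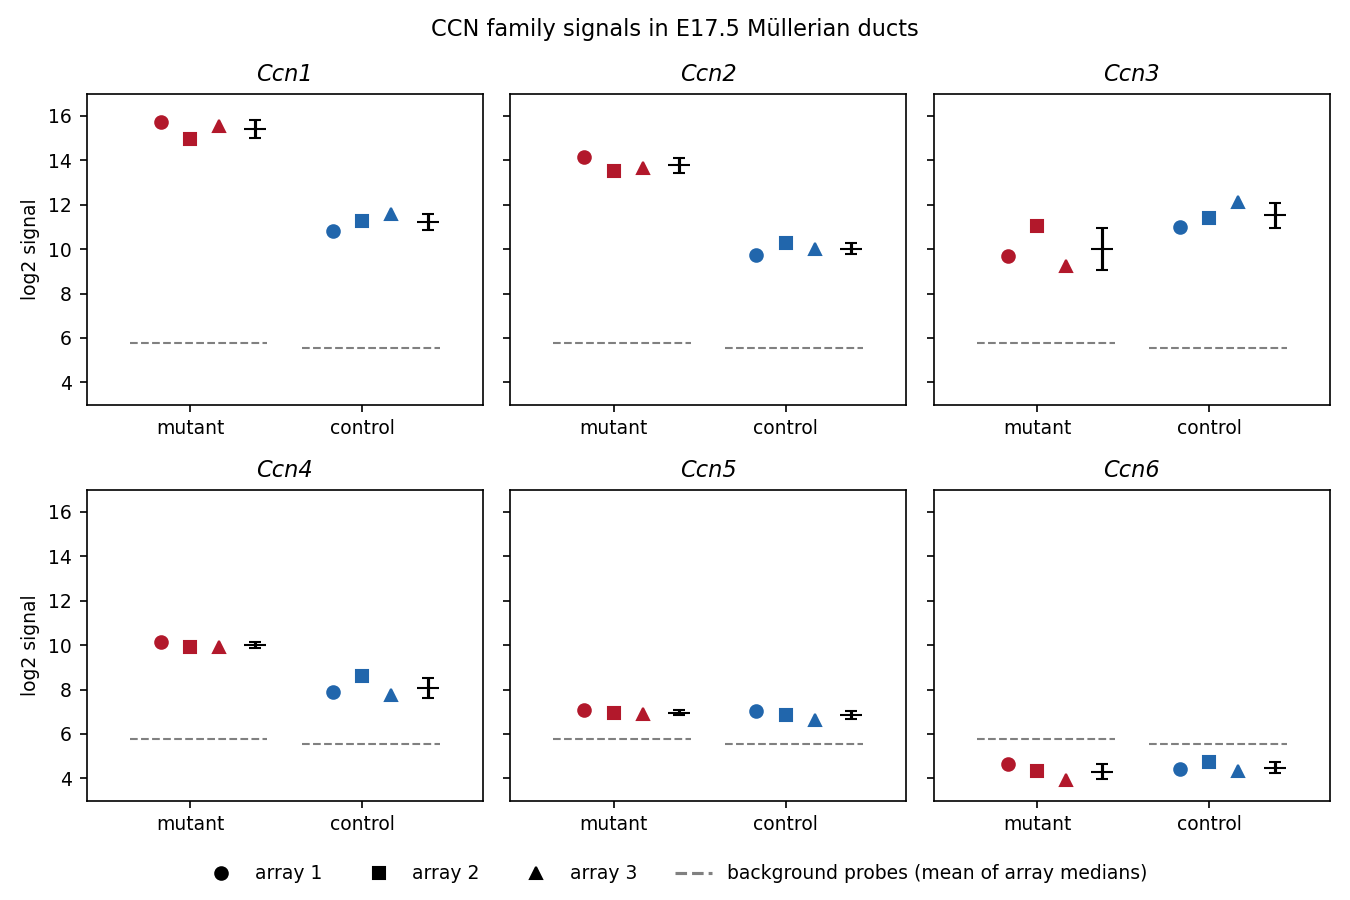
Log2 signal of each CCN member (vertical axis) on the 3 mutant arrays (red) and the 3 control arrays (blue), with the marker shape giving the array number. Black bars are group means ± SD (n = 3), and dashed lines are the mean of the array medians of the background probes. Ccn1, Ccn2 and Ccn4 are separated between the groups, Ccn3 overlaps through mutant 2, and Ccn6 lies under the dashed lines.

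Ccn1, formerly Cyr61, encodes an angiogenic matrix protein that supports adhesion through integrins. Its log2 signal was 15.71, 14.95 and 15.56 in mutants 1 to 3, against 10.83, 11.26 and 11.57 in controls 1 to 3. Every mutant array was high and every control array low, with a gap of 3.38 between the lowest mutant and the highest control. The group means were 15.41 ± 0.40 in mutant and 11.22 ± 0.37 in control ducts (SD, n = 3 each). The log2 difference was 4.18 ± 0.26 (SE; 95% interval 3.61 to 4.76), or 18.2-fold, with a limma adjusted p of 7.0e-05. It was the seventh largest rise among all gene rows.

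The promoter of Ccn1, the member with the largest rise, is shown because CCN1 is a classical TEAD target. It is the RefSeq window of GRCm38.p6 from 250 bases before to 50 bases after the gene start, chr3:145649936-145650235 on the minus strand, written 5′ to 3′ with the TEAD motif in capitals.
Ccn1: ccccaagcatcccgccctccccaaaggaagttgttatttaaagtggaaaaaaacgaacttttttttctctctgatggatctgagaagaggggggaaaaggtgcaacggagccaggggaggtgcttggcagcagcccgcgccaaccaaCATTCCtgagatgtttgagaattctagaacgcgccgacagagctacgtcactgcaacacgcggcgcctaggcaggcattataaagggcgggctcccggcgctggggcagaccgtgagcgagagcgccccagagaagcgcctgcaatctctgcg
The search looked on both strands for the core TEAD motif GGAATG, which reads CATTCC on the other strand, for the AP-1 motif TGANTCA, for TATAAA and for the CArG box bound by serum response factor. The Ccn1 window held 1 TEAD motif, whose first base lay 103 bases before the gene start, and 1 TATAAA motif 25 bases before it, and the motifs did not overlap. It held neither of the other motifs. Of 32851 RefSeq windows of this length, 14.7% held the TEAD motif, 13.6% TATAAA, 7.81% the AP-1 motif and 1.63% the CArG box. Windows were matched for 2 of the 6 members, Ccn1 and Ccn6, and that of Ccn6 held none of these motifs. Among 14 other listed YAP and TAZ targets with a window, 6 held the TEAD motif in at least 1 window. That count is by gene and the 14.7% is by window, so they are not directly comparable.

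Ccn2, formerly Ctgf or connective tissue growth factor, encodes a protein that promotes matrix production by fibroblasts and is induced by TGF-beta as well as by YAP and TAZ. Its signal was 14.15, 13.52 and 13.64 in mutants, against 9.75, 10.27 and 10.02 in controls. The groups were again fully apart, with a gap of 3.25. Means were 13.77 ± 0.34 in mutant and 10.01 ± 0.26 in control ducts (SD, n = 3 each). The log2 difference was 3.76 ± 0.22 (SE; 95% interval 3.26 to 4.25), or 13.5-fold (limma adjusted p = 6.2e-05), and it ranked 12 among the rises of all gene rows.

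Ccn1 and Ccn2 were compared with each other within each array, where an offset between their probe sets cancels in the contrast of genotypes. The log2 signal of Ccn1 minus that of Ccn2 was 1.56, 1.44 and 1.92 in mutants, against 1.08, 1.00 and 1.55 in controls. Control 3 lay above mutant 2, so the groups overlapped. The change of Ccn1 exceeded that of Ccn2 by 0.43 (exact permutation test, two-sided, p = 0.2, where 0.1 is the smallest p that 3 against 3 allows), so a difference in size between these rises was not shown. Both genes had their lowest mutant signal in mutant 2, their highest in mutant 1 and their lowest control signal in control 1.

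Ccn4, formerly Wisp1, was first described as a gene induced by Wnt1, and its protein binds the small proteoglycans decorin and biglycan. Its signal was 10.14, 9.90 and 9.91 in mutants, against 7.89, 8.60 and 7.75 in controls. All mutant arrays lay above all controls, with a gap of 1.30. The log2 difference was 1.90 ± 0.23 (SE; 95% interval 1.38 to 2.43), with a limma adjusted p of 0.00240. It ranked 121 among the rises of all gene rows. All 3 mutant arrays lay above their brightest background probe and 0 of 3 control arrays did, although all lay above the background median.

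The rise of Ccn4 was set against those of Ccn1 and Ccn2 within arrays. The within-array difference of Ccn1 and Ccn4 was 5.57, 5.05 and 5.65 in mutants, against 2.94, 2.67 and 3.82 in controls. That of Ccn2 and Ccn4 was 4.01, 3.61 and 3.73 in mutants, against 1.87, 1.67 and 2.27 in controls. Neither pair overlapped between genotypes, and the changes differed by 2.28 and 1.85 (exact permutation p = 0.1 for each, the smallest possible; 0.136 adjusted over 15 pairs). No adjusted p of these pairs could pass 0.05 in this design.

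Ccn3, formerly Nov, encodes a member that restrains proliferation in several cell types and can counteract CCN2. Its signal was 9.70, 11.05 and 9.25 in mutants, against 10.99, 11.42 and 12.13 in controls. Mutants 1 and 3 were low, while mutant 2 lay 0.06 above control 1, so the groups overlapped. Means were 10.00 ± 0.94 in mutant and 11.51 ± 0.58 in control ducts (SD, n = 3 each), the widest spread of any member in both groups. The log2 difference was -1.51 ± 0.44 (SE; 95% interval -2.51 to -0.51), with an unadjusted p of 0.00744 and a limma adjusted p of 0.127, and it did not pass the threshold. Without mutant 2 the log2 difference was -2.04 and passed (limma adjusted p = 0.0209), and in the other 5 fits that left out 1 array it lay between -1.77 and -1.14 and did not pass.

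The values of mutant 2 in other genes are given beside this result, chosen after they were seen. Besides the highest Ccn3 it had the lowest Ccn1 and Ccn2 signals of the 3 mutants, and the highest Amhr2 and Lats1 signals given above. The summed signal of the 8 Müllerian mesenchyme markers was 15.79, 16.41 and 15.75 in mutants 1 to 3, against 16.86, 16.57 and 16.44 in controls. Mutant 2 was thus nearest to the controls in each of these measures. In other genes it was the mutant farthest from the controls, as in Lats2 (11.95), Bmp4 (14.83), Igfbp2 (17.85) and Crim1 (13.80). The part of all these measures in the Ccn3 result was not tested. Of 7 smooth muscle markers, none rose and 1 fell, beside 0.666% of all gene rows that fell. Their median log2 difference was -0.31. The one that fell was Synpo2, named after its value was seen, with -2.64 ± 0.33 (limma adjusted p = 0.00286). The summed signal of this list was 17.69 to 17.87 in mutants, against 14.21, 15.88 and 17.89 in controls 1 to 3, and Acta2 alone made up 80.0% to 99.0% of it. Control 3, which had the highest Ccn3 and the high urothelial signal given above, was the highest control in 6 of the 7 markers. Its Acta2 signal was 17.57, below all mutants. Its Actg2 and Myh11 signals were 15.15 and 12.58, against at most 9.54 and 8.04 in mutants, named after their values were seen. The part of these markers in the Ccn3 result was not tested either. Without control 3 the log2 difference of Ccn3 was -1.21 (limma adjusted p = 0.257).

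Ccn5, formerly Wisp2, encodes the member without the cystine knot. Its signal was 7.07, 6.93 and 6.90 in mutants, against 7.03, 6.87 and 6.65 in controls. The groups overlapped and lay above the background median but below the brightest background probe on every array. The log2 difference was 0.12 ± 0.17 (SE; 95% interval -0.27 to 0.50; limma adjusted p = 0.812). That interval leaves out a 2-fold change of the array signal in either direction. A signal this near background limits how well a fold of the transcript is measured. Ccn6, formerly Wisp3, is known for its role in cartilage, where loss of the human gene causes a skeletal dysplasia. Its signal was 4.63, 4.36 and 3.94 in mutants, against 4.41, 4.75 and 4.32 in controls. All 6 values were below the background median, so no change in Ccn6 could be measured. Of 7 listed cartilage markers, Col2a1, Col9a1, Matn1 and Matn3 were below it on all arrays too. The other 3, Sox9, Acan and Col11a2, were above it on every array.

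**Figure D2:**
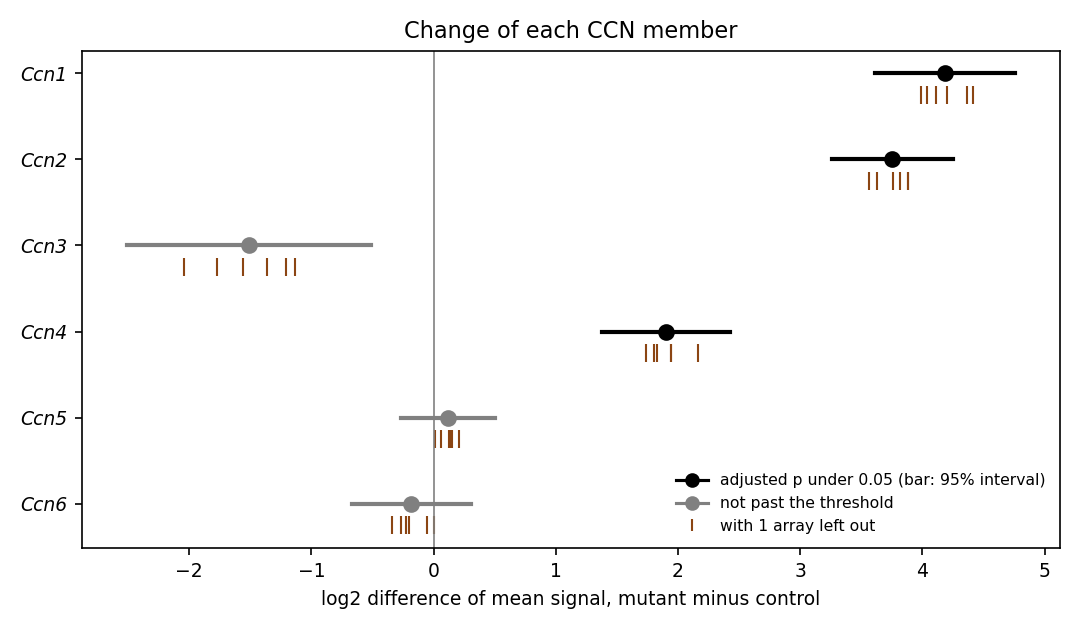
Log2 difference of mean signal, mutant minus control (horizontal axis), for each CCN member, with 95% intervals by limma. Black marks members past an adjusted p of 0.05 and grey those that were not, and brown ticks are the 6 values with 1 array left out. The ticks of Ccn1 lie between 3.99 and 4.41, and those of Ccn3 between -2.04 and -1.14.

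Rows with the profile most like each member over the 6 arrays were ranked by the root-mean-square distance between log2 values centred on their mean. Nearest to Ccn1 was Ccn2 itself, at 0.31 (r = 0.994), followed by Plaur, the urokinase receptor, and Rcan2, a calcineurin regulator, at 0.31 and 0.32. Nearest to Ccn2 were Plaur at 0.20, Tnfrsf12a, the receptor of the cytokine TWEAK, at 0.29, and then Ccn1. These likenesses rest mostly on the difference between genotypes, which all of these rows share. Plaur was at 10.16, 10.06 and 10.19 in mutants, against 6.16, 6.48 and 6.57 in controls, with a gap of 3.48 between the groups.

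Nearest to Ccn3 were Edaradd, an adaptor of the ectodysplasin receptor, at 0.37, AW551984 at 0.37 and the carboxypeptidase-like gene Cpxm2 at 0.39. Edaradd was at 7.31, 7.97 and 6.72 in mutants, against 9.14, 9.04 and 9.86 in controls. In all 3, as in Ccn3, mutant 2 was the highest mutant and control 3 the highest control. These rows were chosen by likeness to Ccn3 over the same arrays, so the shared order is not a separate result. Nearest to Ccn4 were Mtus2 at 0.10, Ncf4, a subunit of the phagocyte NADPH oxidase, at 0.11 and the Polycomb ring finger gene Pcgf5 at 0.13. Ncf4 was at 8.88, 8.52 and 8.64 in mutants, against 6.82, 7.47 and 6.68 in controls. The same control array was high as in Ccn4, which the choice by likeness favours. Ccn5 had 7807 rows within 0.25, since many rows are as flat. Its 3 nearest were Ccnj, Nf1 and Olfr1347, the last below the background median on every array. Within the same distance lay 0 rows for Ccn1 and Ccn3, 1 for Ccn2 and 21 for Ccn4.

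**Figure D3:**
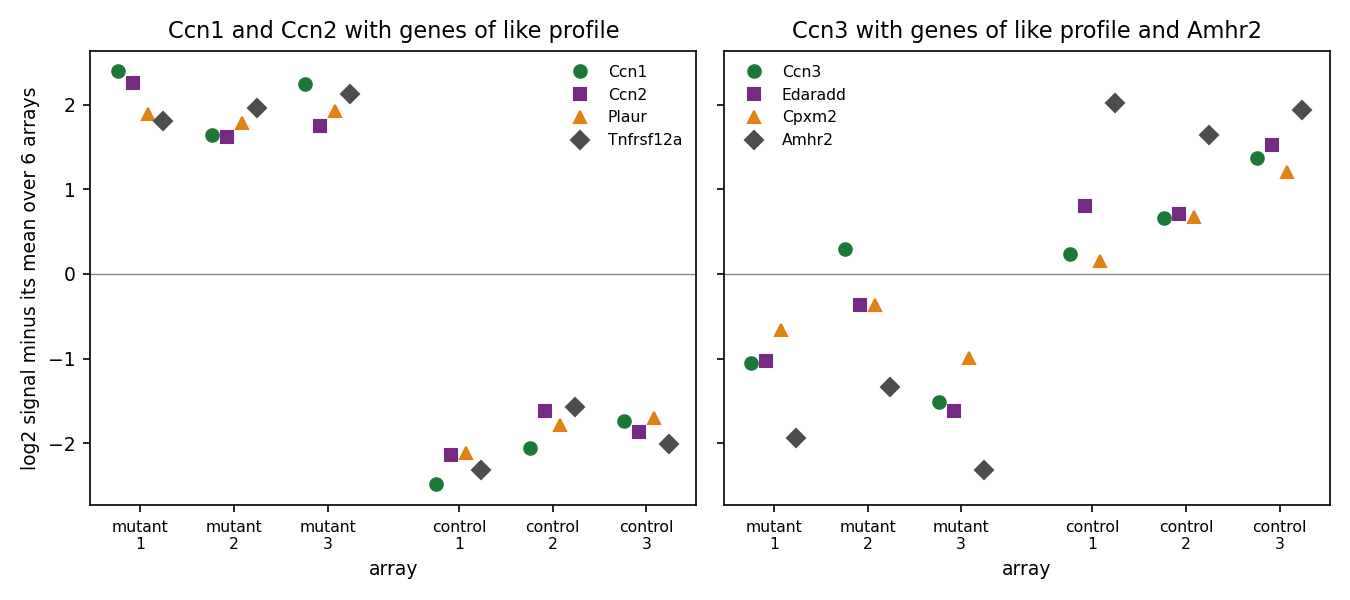
Log2 signal minus its mean over the 6 arrays (vertical axis) on each array (horizontal axis), for Ccn1 and Ccn2 with 2 rows of like profile (left) and for Ccn3 with 2 rows of like profile and Amhr2 (right). Ccn1 and Ccn2 separate the genotypes on every array, while Ccn3, Edaradd, Cpxm2 and Amhr2 have their highest mutant value in mutant 2. Edaradd and Cpxm2 were chosen by likeness to Ccn3 over these arrays.

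Genes beside the CCN genes were read to see whether a change extended to them. The nearest protein-coding gene on each side, by gene start in the RefSeq table of GRCm38.p6, gave 12 genes, of which 10 had a row. Of these, 2 rose and none fell, beside 2.59% of all gene rows that rose. Both lay next to a member that rose. Ddah1, which encodes an enzyme that degrades methylarginine inhibitors of nitric oxide synthase, lies next to Ccn1. It was at 13.21, 13.65 and 13.72 in mutants, against 10.75, 11.33 and 11.72 in controls, a log2 difference of 2.26 ± 0.26 (SE; limma adjusted p = 0.00165). Ndrg1, a gene induced by hypoxia and differentiation, lies next to Ccn4. It was at 12.31, 12.04 and 12.54 in mutants, against 9.59, 10.42 and 10.41 in controls, a log2 difference of 2.16 ± 0.25 (SE; limma adjusted p = 0.00182).

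On their other sides, Znhit6 beside Ccn1 had a log2 difference of -0.14 (adjusted p = 0.806) and Sla beside Ccn4 of 0.44 (adjusted p = 0.405). Moxd1 beside Ccn2 had -0.39 (adjusted p = 0.432), and the 5 measured neighbours of Ccn3, Ccn5 and Ccn6 lay between -0.63 and -0.04. Enpp1 beside Ccn2 and Enpp2 beside Ccn3 were not analysed here.

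Most receptors of CCN proteins did not pass the threshold. Of 15 measured integrin subunits, lipoprotein receptors and other CCN receptors, 2 rose and none fell, with a median log2 difference of 0.36. Over all gene rows 2.59% rose and 0.666% fell, the shares to set beside this and the later list counts. Itgam, the alpha M integrin subunit of myeloid cells that binds CCN1 and CCN2, was at 7.75, 7.87 and 8.00 in mutants, against 6.04, 6.02 and 6.03 in controls. Its log2 difference was 1.84 ± 0.16 (SE; limma adjusted p = 0.000353). Its partner Itgb2 was at 5.20, 5.68 and 5.38 in mutants, against 4.62, 4.94 and 4.68 in controls, below the background median on every array. Macrophage markers moved with Itgam: 6 of 10 rose and none fell, and their summed log2 signal was 14.47 to 14.89 in mutants, against 13.57 to 13.72 in controls. Their part in the Itgam result was not tested. Notch1, which CCN3 can bind, rose by 0.80 ± 0.17 (adjusted p = 0.0337), a call lost in all 6 fits that left out 1 array, where adjusted p reached 0.128, so that 1 receptor rose in each. The call was also lost with the replicate number as a block (adjusted p = 0.0656).

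The subunits through which CCN1 and CCN2 bind fibroblasts and endothelial cells did not pass the threshold. Their log2 differences were 0.77 for Itga5, 0.49 for Itga6, 0.36 for Itgav, 0.19 for Itgb1, 0.14 for Itgb5 and -0.42 for Itgb3, values named after they were seen. The groups did not overlap for Itga5, Itga6, Itgav and Itgb1, as in 21.1% of all gene rows, and they overlapped for Itgb5 and Itgb3. Itga2, a collagen receptor subunit, was at 10.13, 10.22 and 10.19 in mutants, against 9.36, 9.75 and 9.61 in controls. Its groups did not overlap, yet its adjusted p was 0.103. It passed when rows under the median were left out (adjusted p = 0.0427), and 3 receptors then rose.

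Growth factors, matrix partners and proteases of CCN proteins rose in 5 of 16 cases and none fell, with a median of 0.30. Bmp4, a ligand that CCN2 can bind, was at 14.66, 14.83 and 14.43 in mutants, against 10.71, 10.92 and 11.90 in controls, a log2 difference of 3.47 ± 0.29 (SE; limma adjusted p = 0.000348). The gelatinase Mmp9 was at 6.25, 6.92 and 6.20 in mutants, against 4.27, 5.14 and 4.22 in controls, with a limma adjusted p of 0.00733. All 3 controls lay below the background median, so only a bound is given, at least 1.87-fold higher in mutants when each control is set at its background median. Vegfa, the angiogenic factor that CCN2 can sequester, rose by 1.14 ± 0.20 (limma adjusted p = 0.0154), and the proteoglycan Bgn, which binds CCN4, by 0.93 ± 0.18 (limma adjusted p = 0.0234). The fifth was Tgfb1 with 1.00 ± 0.20, named after its value was seen. The call of Vegfa was lost without mutant 1, mutant 2 or control 1, with adjusted p of 0.0517 to 0.0698. Those of Bgn and Tgfb1 held without control 3 and were lost without any 1 of the other 5 arrays, with adjusted p up to 0.101 for Bgn and 0.116 for Tgfb1. The number that rose was 2 without mutant 1, mutant 2 or control 1, and 3 without mutant 3 or control 2. Decorin (Dcn), the other small proteoglycan partner of CCN4, had a log2 difference of -0.45 (adjusted p = 0.246), also named after its value was seen.

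Genes that share the insulin-like growth factor binding module with the CCN family changed in both directions: 4 of 13 rose and 1 fell, with a median of -0.03. Crim1, a transmembrane BMP-binding protein, rose by 2.31 ± 0.17 (limma adjusted p = 0.000197), Igfbp2 by 2.21 ± 0.22 (limma adjusted p = 0.000778) and Igfbp3 by 2.06 ± 0.18 (limma adjusted p = 0.000368). The secreted protease Htra1 rose by 1.57 ± 0.22 (limma adjusted p = 0.00566). The fall was that of Igfbp4, named after its value was seen, with -0.90 ± 0.16 (limma adjusted p = 0.0177), and no gene of this list fell without mutant 1, mutant 3 or control 1.

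Upstream of the CCN genes, 2 of 12 genes of the YAP, TAZ and TEAD complex and its regulators rose and none fell, with a median of 0.25. Vgll3, a TEAD cofactor, rose by 3.50 ± 0.26 (limma adjusted p = 0.000188), and Wwtr1, which encodes TAZ, by 0.99 ± 0.20 (limma adjusted p = 0.0288). Leaving out mutant 1, mutant 3, control 1 or control 3 ended the call of Wwtr1 and left 1 rise, as did the replicate block (adjusted p = 0.0539). Vgll4 had a log2 difference of 0.70 (limma adjusted p = 0.0508), and it passed the threshold after quantile normalization, with arrays shifted to a common median, without rows under the 25th percentile and with array weights. Of 20 other listed YAP and TAZ targets, 8 rose and none fell, with a median of 0.55, and Crim1 and Igfbp3 from above are among the 8. The 2 largest log2 differences in this list were 3.60 for Ankrd1, a nuclear ankyrin repeat protein named after its value was seen, and 2.83 for the scaffold gene Amotl2 (limma adjusted p = 0.000904 and 0.000312). Whether these differ from the rises of Ccn1 and Ccn2 was not tested.

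Ccn2 is also a known target of TGF-beta, and Ccn1 and Ccn2 of serum response factor. Of 9 measured genes that TGF-beta induces, 6 rose and none fell, with a median of 1.67. Their summed signal overlapped, at 17.32 to 17.77 in mutants, against 17.41 to 17.55 in controls. The brightest gene, Tgfbi, alone made up 20.6% to 62.5% of this sum. The mean of their log2 signals did not overlap, at 12.53 to 12.82 in mutants, against 10.97 to 11.06 in controls. Inhba, the activin beta A subunit, rose by 4.22 ± 0.17 (limma adjusted p = 1.6e-05), the transcriptional repressor Bhlhe40 by 3.77 ± 0.19 (limma adjusted p = 3.2e-05) and thrombospondin 1 (Thbs1) by 2.51 ± 0.21 (limma adjusted p = 0.000312). Tgfbi, a secreted matrix protein named after its value was seen, was at 15.98, 16.16 and 15.04 in mutants, against 16.84, 16.84 and 16.68 in controls. Its groups did not overlap, with a log2 difference of -1.06 ± 0.27 (limma adjusted p = 0.0831). Ltbp2, among the 6 that rose, was below the background median on all 3 control arrays and on mutants 2 and 3, also named after its values were seen. Of 12 measured targets of serum response factor and its MRTF cofactors, 5 rose and none fell, with a median of 1.28, and 8 rose without control 3. Tagln, an actin-binding protein, rose by 2.92 ± 0.30 (limma adjusted p = 0.00108) and Fhl2 by 2.19 ± 0.20 (limma adjusted p = 0.000551).

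Ccn1 is in addition an immediate early gene, and handling of tissue can induce such genes. Of 13 immediate early and stress genes, 5 rose and none fell, with a median of 0.82, and 3 rose without mutant 1 or control 2. Their summed log2 signal was 14.67 to 14.92 in mutants, against 13.31 to 14.20 in controls, and Dusp1 alone made up 51.0% to 66.6% of it. Ier3 rose by 3.12 ± 0.27 (limma adjusted p = 0.000389) and Fos by 1.71 ± 0.24 (limma adjusted p = 0.00449). The heat shock genes Hspa1a and Hspa1b rose by 2.33 ± 0.34 and 2.57 ± 0.46 (limma adjusted p = 0.00640 and 0.0163). The call of Hspa1b was lost without mutant 1, control 1 or control 2, with limma adjusted p of 0.0582 to 0.0697. Jun was at 10.73, 11.29 and 11.14 in mutants, against 11.17, 10.99 and 11.08 in controls, named after its values were seen. In control 3, where the summed signal of this list was highest among controls, Ccn1 was the highest of the controls and Ccn2 was not. The part of this list in the rises of Ccn1 and Ccn2 was not tested.

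**Figure D4:**
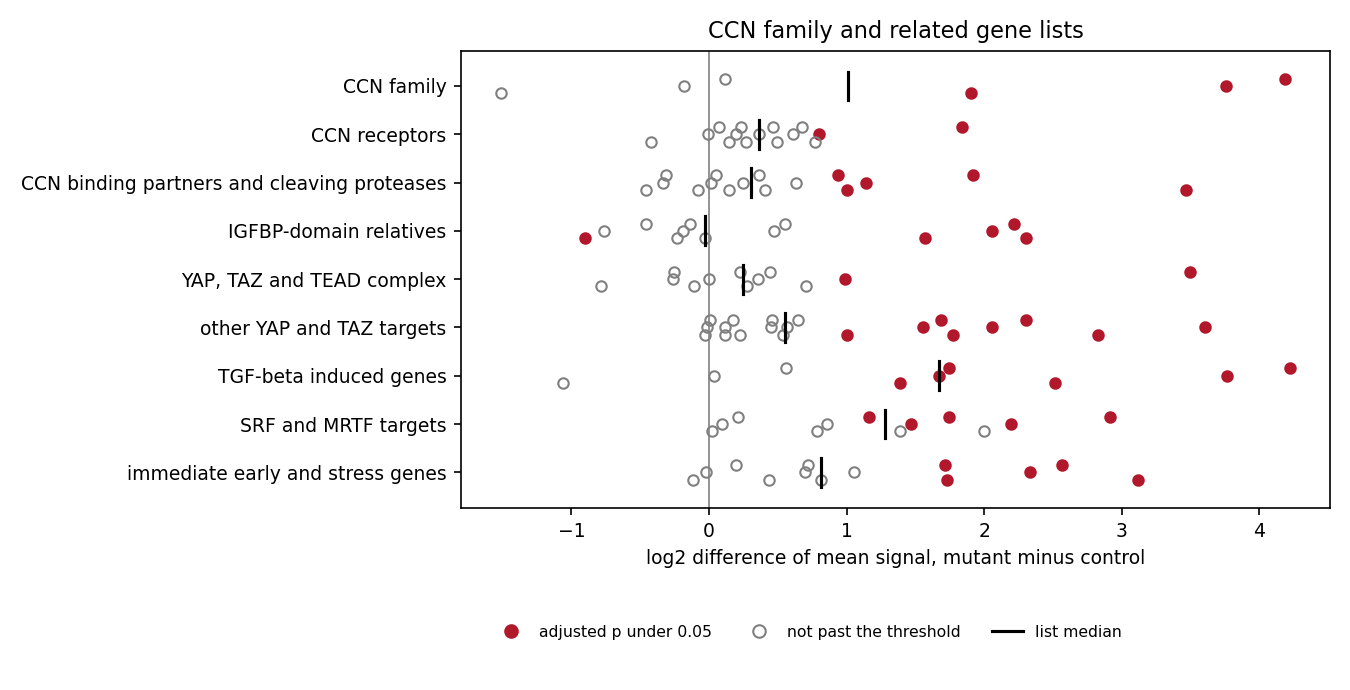
Log2 difference of mean signal, mutant minus control (horizontal axis), of each measured gene of the CCN family and of the related lists (rows). Red points passed an adjusted p of 0.05, open points did not, and black lines are list medians. The CCN family holds 3 of the red points, at 4.18, 3.76 and 1.90, and its lowest open point is Ccn3 at -1.51.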

How the data were processed

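The authors deposited log2 signals, 1 value per transcript cluster and array, made with Transcriptome Analysis Console 4.0 per the submitters' processing notes. The probe summary and the normalization method are not stated in the labels. Of 28846 rows, the 22206 gene rows were tested and 6640 control rows left out. The platform's annotation named 1 gene symbol for 19572 of them, several for 0 and did not list 2634. A gene with several rows was read from the row with the highest mean.

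Genotype was the single term of a fit across all gene rows, made with limma (version 3.58.1, under R 4.3.3), with two-sided tests and Benjamini-Hochberg adjustment over all rows at 0.05. Differences are mutant minus control, with limma standard errors. The fit was tested on simulated data. Pairs of members were compared by exact permutation tests with scipy 1.17.1 over the 3 mutant and 3 control arrays. A list's summed signal is the log2 of its added linear signals.

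The members, the lists, the motifs and the neighbouring genes were chosen with earlier results of these data known. The text names the members, Lats1, Lats2 and Amhr2, up to 4 genes of each list with the smallest p, and the 3 rows nearest in profile to each member above background; other names are said to have been chosen after their values were seen or stand as marker examples or neighbours. Alternatives were quantile normalization, a common median, filters on dim rows, a trended robust prior, weights per array, a replicate block, a plain unequal-variance test, and each array left out. Same-numbered arrays of the groups did not deviate together, so the block was not used in the reported fit.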

Additional observations from a re-analysis of the deposited data

How the results depend on the processing

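The rises of Ccn1, Ccn2 and Ccn4 passed the threshold in every fit with a moderated spread. With 1 array left out, the log2 difference ranged from 3.99 to 4.41 for Ccn1, 3.56 to 3.88 for Ccn2, 1.74 to 2.16 for Ccn4 (adjusted p up to 0.0154), -2.04 to -1.14 for Ccn3, 0.01 to 0.21 for Ccn5 and -0.34 to 0.0030 for Ccn6, whose sign turned without mutant 3. The number of CCN genes that fell then ranged from 0 to 1, the 1 being Ccn3 without mutant 2. In the other moderated fits Ccn3 had adjusted p from 0.0718 to 0.216. The plain unequal-variance test, which shares no spread between rows, called 0 rows in either direction, and so 0 of the CCN genes and 0 of each list. Its differences were 4.18 for Ccn1 and 3.76 for Ccn2 (adjusted p = 0.177 for both) and 1.90 for Ccn4 (adjusted p = 0.357). Its unadjusted p was 0.000192 for Ccn1, 0.000161 for Ccn2 and 0.0128 for Ccn4, and 2332 gene rows had an unadjusted p under 0.05.

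Over all gene rows, 575 rose and 148 fell. With 1 array left out, rises ranged from 305 to 565 and falls from 55 to 132. Rises numbered 305 without mutant 1, 320 without control 1 and 378 without control 2, and falls 55 without mutant 1, 92 without mutant 3, 64 without control 1 and 76 without control 2. Falls numbered 257 without rows under the median and 243 with the trended and robust prior. Counts in the lists with 1 array left out were 1 for receptors that rose, 2 to 5 for partners and proteases, 1 to 2 for the TEAD complex, 4 to 8 for targets of serum response factor, 3 to 7 for immediate early genes, and 0 to 1 for IGFBP-domain relatives that fell. That last count was 2 without rows under the median, with the trended and robust prior and with array weights. In the TEAD complex list 1 gene, Lats1, fell without rows under the median and with the trended and robust prior, and 1 TGF-beta induced gene, Tgfbi, fell without rows under the median. Mal2, beside Ccn3, changed sign with array weights (0.16) and ranged from -0.28 to 0.26 with 1 array left out (0.21 without mutant 3 and 0.26 without control 2), and Znhit6, beside Ccn1, from -0.28 to 0.039 (0.039 without mutant 2). Jun, with no call, ranged from -0.14 to 0.14.

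Deviations of same-numbered mutant and control arrays from their group means correlated at 0.008, 0.042 and -0.003, so the numbers are not taken to pair the arrays, and 1 of 3 mutants correlated best with its own number. With the replicate block 502 rows rose and 131 fell, 1 receptor and 1 gene of the TEAD complex rose, the calls of Notch1 and Wwtr1 were lost, 7 other YAP and TAZ targets and 6 targets of serum response factor rose, and no call changed for the other genes whose alternatives were run one by one. The pair differences kept their sign in all settings run. Signals near background, as for Ccn5, Ccn6 and Ccn4 in controls, limit how well a fold is measured.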
